A study of Homo sapiens with 6 samples.

Results

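The miR-17-92 cluster was examined on miRNA arrays of Panc-1 cells, a human pancreatic ductal adenocarcinoma line, that were kept with or without TGF-β. Its members were the probes named for 10 listed mature miRNAs of the 6 precursors in the host gene MIR17HG on chromosome 13, which gave 10 of the 2565 miRNA probes of the array. The array also holds miR-19a-5p and miR-19b-1-5p, arms of the same precursors that were not listed and are described apart from the members. The control group was 3 arrays of Panc-1 cells at 0 ng/mL TGF-β, and the TGF-β group was 3 arrays of Panc-1 cells at 10 ng/mL, with 72 h of treatment. No other agent or genetic change was listed for either group, and both come from 1 cell line. The control arrays shared 1 slide and the TGF-β arrays shared the other, so slide and treatment cannot be told apart. Nothing in the labels says that the 3 samples of a group were separate cultures, so p-values measure the spread between these samples, which may be technical.

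MIR17HG is transcribed into a long RNA that carries the hairpins one after another, and the hairpins are cut out and each is processed into a duplex with a 5p and a 3p arm. Usually 1 arm, the guide, is kept in the silencing complex and pairs with target mRNAs through its seed, bases 2 to 8. The cluster is known as an oncogenic miRNA locus that MYC and E2F factors activate, and its guides are known to repress the pro-apoptotic BCL2L11, the cell cycle inhibitor CDKN1A and the TGF-β pathway components TGFBR2 and SMAD4. TGF-β itself is known to drive epithelial-mesenchymal transition in pancreatic cancer cells, which is the setting of the study. Amounts of guide and of primary transcript are not the same quantity, and these arrays measured the mature arms.

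The 6 guides fall into 4 seed groups, and their sequences are shown first because members of 1 group read the same target sites and can differ by as little as 1 base. Sequences are the RefSeq mature miRNAs (GRCh38.p14), 5′ to 3′, with the seed in capitals. The seed groups of miR-17-5p and miR-18a-5p differ from each other by 1 base of the seed.
hsa-miR-17-5p: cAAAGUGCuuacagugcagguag
hsa-miR-20a-5p: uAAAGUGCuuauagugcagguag
hsa-miR-18a-5p: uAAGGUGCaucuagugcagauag
hsa-miR-19a-3p: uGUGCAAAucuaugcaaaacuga
hsa-miR-19b-3p: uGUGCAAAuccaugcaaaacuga
hsa-miR-92a-3p: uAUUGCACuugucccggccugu
Counted from the 5′ end, miR-17-5p and miR-20a-5p differed by C1U and C12U, and miR-19a-3p and miR-19b-3p by U11C alone. The files do not say how far a probe tells such sequences apart. RefSeq also places miR-19b-3p and miR-92a-3p in a second precursor each, MIR19B2 and MIR92A2 on the X chromosome, and an array probe reads both sources together.

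The other 4 members are shown because they come from the same hairpins and have seeds that no guide of the cluster shares.
hsa-miR-17-3p: aCUGCAGUgaaggcacuuguag
hsa-miR-18a-3p: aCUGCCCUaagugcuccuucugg
hsa-miR-20a-3p: aCUGCAUUaugagcacuuaaag
hsa-miR-92a-1-5p: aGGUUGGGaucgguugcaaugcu
On GRCh38.p14 the precursors run on the plus strand in the order MIR17 (chr13:91350605-91350688), MIR18A (chr13:91350751-91350821), MIR19A (chr13:91350891-91350972), MIR20A (chr13:91351065-91351135), MIR19B1 (chr13:91351192-91351278) and MIR92A1 (chr13:91351314-91351391). They span 787 bases, with gaps of 35 to 92 bases between neighbours, and all 6 lie inside the long non-coding RNA gene MIR17HG.

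Values below are normalised intensities on a linear scale: the mean of the array's blank spots was subtracted, a floor of 1 unit was set, and the arrays were quantile normalised. On the arrays, 1531 to 1604 miRNA probes were detected in control cells and 1563 to 1787 in TGF-β cells, where detected means a signal above the blank mean plus 2 SD. Over the 1282 miRNAs detected on all arrays, the log2 values of any 2 arrays correlated at 0.984 to 0.992. Of the epithelial marker miRNAs, miR-200a-3p and miR-200b-3p were detected on all arrays and miR-141-3p on none, and the summed level of the 6 markers was 14.7 to 20.0 in control and 17.7 to 19.5 in TGF-β cells. Of the 3 acinar markers, miR-216b-5p and miR-217 were detected on no array, and miR-216a-5p on no control array and 2 TGF-β arrays, at 1.54 and 1.504 against the floor of 1 elsewhere. The islet marker miR-375 was detected on 1 TGF-β array alone, at 2.04. The summed level of the 6 blood cell markers was 35.1 to 38.8 in control and 30.9 to 42.2 in TGF-β cells. Within that sum miR-486-5p was at 18.4, 23.0 and 17.3 in control and 16.7, 13.1 and 14.4 in TGF-β cells. Every TGF-β array was below every control array (adjusted p = 0.217 in limma, exact permutation p = 0.1). Among the remaining blood cell markers, miR-451a, miR-223-3p and miR-150-5p had the higher mean in TGF-β cells, and miR-142-3p and miR-142-5p the lower mean. Their part in the results below was not tested.

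Of the 10 members, 9 were detected on all 6 arrays and were tested with limma, in a fit over the 1457 miRNAs that passed the detection limit throughout 1 or both groups. No member passed an adjusted p of 0.05 in either direction, against 58 of all 1457 tested miRNAs (3.98%), of which 38 (2.61%) were higher and 20 (1.37%) lower in TGF-β cells. The count of 58 became 35 without control replicate 2, 25 without TGF-β replicate 2 and 33 without TGF-β replicate 3. Adjusted p-values of the members ran from 0.155 to 0.982. At an unadjusted p under 0.05, 3 of the 9 members were past the threshold (miR-17-5p, miR-18a-3p and miR-19b-3p), all with the higher mean in TGF-β cells. Over all tested miRNAs this share was 13.9%, and 7.48% with the higher mean in TGF-β cells. The methods' t-test gave the same number of members before adjustment, 3 (beside 13.3% of all miRNAs), and 0 after it (beside 1.17%). For these same 3 members every TGF-β array lay above every control array, which was so for 8.8% of all miRNAs with a value on all arrays. For no member did every TGF-β array lie below every control array, beside 10.1% of all miRNAs.

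**Figure D1:**
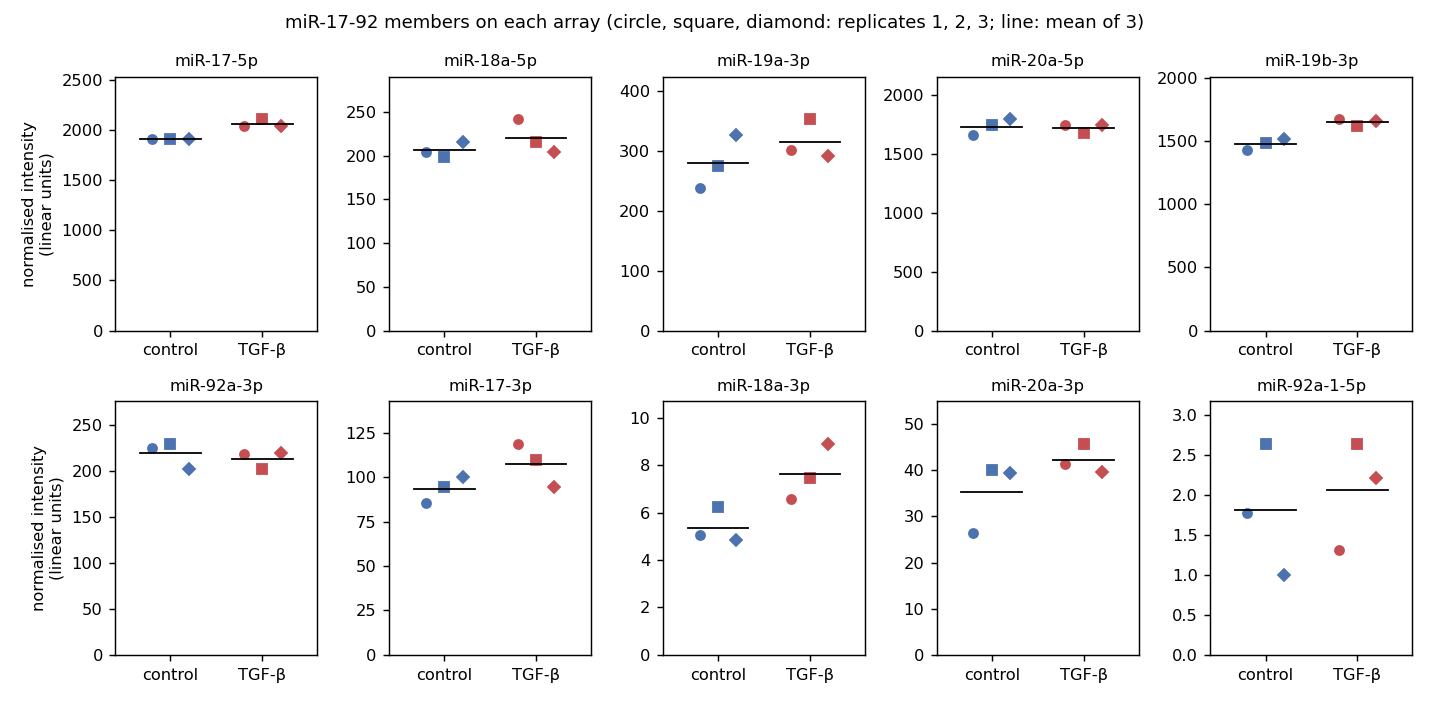
Normalised intensity (linear units, axis from 0) of the 10 members on the 3 control and 3 TGF-β arrays, with symbols for replicates 1, 2 and 3 and a line at the mean of each group; the y axes differ between panels. The groups are apart for miR-17-5p, miR-18a-3p and miR-19b-3p and overlap for the other members, and miR-92a-1-5p sits at 1 to 3 units, close to the floor.

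miR-17-5p, a guide known to repress CDKN1A and TGFBR2, was at 1908, 1908 and 1908 in control and at 2037, 2104 and 2038 in TGF-β cells. The means were 1908 ± 0.367 and 2060 ± 38.4 (SD, n = 3 each), every TGF-β array was above every control array, and the difference was 0.11 on the log2 scale (SE 0.048). The fold was 1.08, with a 95% interval of 1.003 to 1.16, an unadjusted limma p of 0.0422 and an adjusted p of 0.325. The exact permutation test, 2-sided, gave p = 0.1, the smallest that 3 arrays against 3 allow. Quantile normalisation gives the same value to probes of the same rank on their arrays, so the near-equal control values do not show how far control cells differ. Before subtraction and normalisation the signals were 1565, 1800 and 2304 in control and 1857, 2328 and 2150 in TGF-β cells, and those groups overlapped. The log2 difference of miR-17-5p was 0.20 with median scaling (SE 0.11, adjusted p = 0.471 in limma) and 0.30 with the deposited values. It was 0.49 with the local background, with an SE of 1.49 and the groups overlapping.

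miR-20a-5p, which has the seed of miR-17-5p, was at 1656, 1745 and 1792 in control and 1745, 1673 and 1745 in TGF-β cells. The groups overlapped, with means of 1731 ± 69.4 and 1721 ± 41.8. The fold was 0.995 (95% interval 0.916 to 1.08, adjusted p = 0.982 in limma). With each array scaled to its median instead, the log2 difference of miR-20a-5p was 0.09, above 0. The log2 ratio of miR-17-5p to miR-20a-5p on each array was 0.20, 0.13 and 0.090 in control and 0.22, 0.33 and 0.22 in TGF-β cells. The groups of ratios did not overlap and differed by 0.12, with an exact permutation p of 0.1, or 0.333 after adjustment over the 5 pairs of members compared. The 5 pairs were chosen after the values were seen, so their p-values are a description only. With the local background of each spot in place of the blank spots the difference of the ratio was -0.12 and the groups overlapped, and without normalisation it was 0.11 with the groups apart.

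miR-18a-5p, whose seed differs from that of miR-17-5p by 1 base, was at 204, 198 and 216 in control and 241, 216 and 204 in TGF-β cells. The groups overlapped, and the log2 difference was 0.10 (SE 0.082), a fold of 1.07 with a 95% interval of 0.943 to 1.21. Its adjusted p in limma was 0.694, and the difference was 0.025 without TGF-β replicate 1 and 0.15 without TGF-β replicate 3. With median scaling the difference was 0.16 (adjusted p = 0.543 in limma) and the groups were apart. Those of miR-17-5p, miR-18a-3p and miR-19b-3p were apart in that setting too. The share of all miRNAs with groups apart there was not counted.

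miR-19a-3p and miR-19b-3p share a seed and are regarded as the main oncogenic guides of the cluster. miR-19b-3p was at 1431, 1484 and 1517 in control and 1673, 1622 and 1656 in TGF-β cells, so that every TGF-β array was above every control array. Its means were 1477 ± 43.8 and 1650 ± 26.0, a log2 difference of 0.16 (SE 0.051). The fold was 1.12 (95% interval 1.03 to 1.21), with an unadjusted limma p of 0.0103, an adjusted p of 0.155 and an exact permutation p of 0.1. This was the smallest adjusted p among the members. Before subtraction and normalisation the signals were 1260, 1434 and 1832 in control and 1567, 1894 and 1659 in TGF-β cells, and those groups overlapped. The log2 difference of miR-19b-3p was 0.22 with median scaling (SE 0.10, adjusted p = 0.402 in limma). It was 0.19 without normalisation between arrays (SE 0.18, adjusted p = 0.975 in limma). miR-19a-3p was at 237, 274 and 326 in control and 300.1, 352 and 292 in TGF-β cells. Those groups overlapped, and the fold was 1.13 with an interval of 0.951 to 1.35 (adjusted p = 0.546 in limma). Its log2 difference of 0.18 was 0.065 without control replicate 1, 0.098 without TGF-β replicate 2 and 0.30 without control replicate 3. The log2 ratio of miR-19a-3p to miR-19b-3p differed between groups by 0.02, with an exact permutation p of 0.9, and the ratios overlapped.

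miR-92a-3p, a guide known to repress the integrin subunit ITGA5 in blood vessels, was at 225, 229 and 202 in control and 218, 202 and 220 in TGF-β cells. The groups overlapped, with means of 219 ± 14.7 and 213 ± 9.66. The fold was 0.975 (95% interval 0.866 to 1.10, adjusted p = 0.905 in limma). With median scaling the log2 difference was 0.04, above 0.

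The arms opposite the guides of MIR17, MIR18A and MIR20A are the ones less often kept in the silencing complex. Their 3 log2 differences were above 0, although with the local background only that of miR-18a-3p was, at 0.014 (SE 0.019) with the groups overlapping. miR-18a-3p was at 5.04, 6.23 and 4.84 in control and 6.57, 7.46 and 8.90 in TGF-β cells, and every TGF-β array was above every control array. The means were 5.37 ± 0.751 and 7.64 ± 1.18, a log2 difference of 0.51 (SE 0.18) and a fold of 1.42 with a 95% interval of 1.08 to 1.87. The unadjusted limma p was 0.0162, the adjusted p was 0.203 and the exact permutation p was 0.1. Its signals were near the background: 22.9, 24.98 and 27.0 in control and 25.6, 26.6 and 29.8 in TGF-β cells, against blank means of 18.2 to 21.3. Without background subtraction the log2 difference of miR-18a-3p was 0.13 (SE 0.045). These signals overlapped before the blank mean was subtracted and stood 7.06 to 9.42 blank SDs above it in control and 9.38 to 14.8 in TGF-β cells.

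miR-20a-3p was at 26.3, 40.0 and 39.4 in control and 41.4, 45.7 and 39.7 in TGF-β cells, with control replicate 1 below the other 5 arrays. The groups overlapped, and the fold was 1.22 with an interval of 0.959 to 1.55 (adjusted p = 0.461 in limma). Its log2 difference, 0.28, was 0.086 without control replicate 1 and 0.18 without background subtraction. miR-17-3p was at 85.6, 94.4 and 100.3 in control and 119, 110 and 94.4 in TGF-β cells. These groups overlapped too, and the fold was 1.15 with an interval of 0.980 to 1.35 (adjusted p = 0.441). Its log2 difference of 0.20 was 0.13 without control replicate 1 and 0.13 without TGF-β replicate 1. The log2 ratio of the 5p to the 3p arm differed between TGF-β and control by -0.09 for MIR17, -0.41 for MIR18A and -0.29 for MIR20A, with exact permutation p-values of 0.5, 0.2 and 0.2, and the groups of ratios overlapped for each of these 3 precursors. Adjusted over the 5 pairs, which were chosen after the values were seen, these were 0.625, 0.333 and 0.333. With the local background the differences were 0.58, -0.43 and 0.68, so those of MIR17 and MIR20A turned. Without normalisation between arrays they were 0.0049, -0.36 and -0.22, and for MIR20A every TGF-β array then lay below every control array.

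miR-92a-1-5p was detected on 2 of the 3 control arrays and 2 of the 3 TGF-β arrays and was therefore not tested. Its signals were 19.8, 21.6 and 22.2 in control and 20.6, 21.6 and 23.1 in TGF-β cells, which is 1.17 to 5.43 SDs above the blank mean. Of the remaining arms of the same precursors, miR-19a-5p was detected on 2 arrays of each group and was not tested. miR-19b-1-5p was at 14.8, 14.8 and 15.2 in control and 20.3, 16.9 and 13.3 in TGF-β cells, with a log2 difference of 0.15 (SE 0.15, adjusted p = 0.744 in limma) and overlapping groups.

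**Figure D2:**
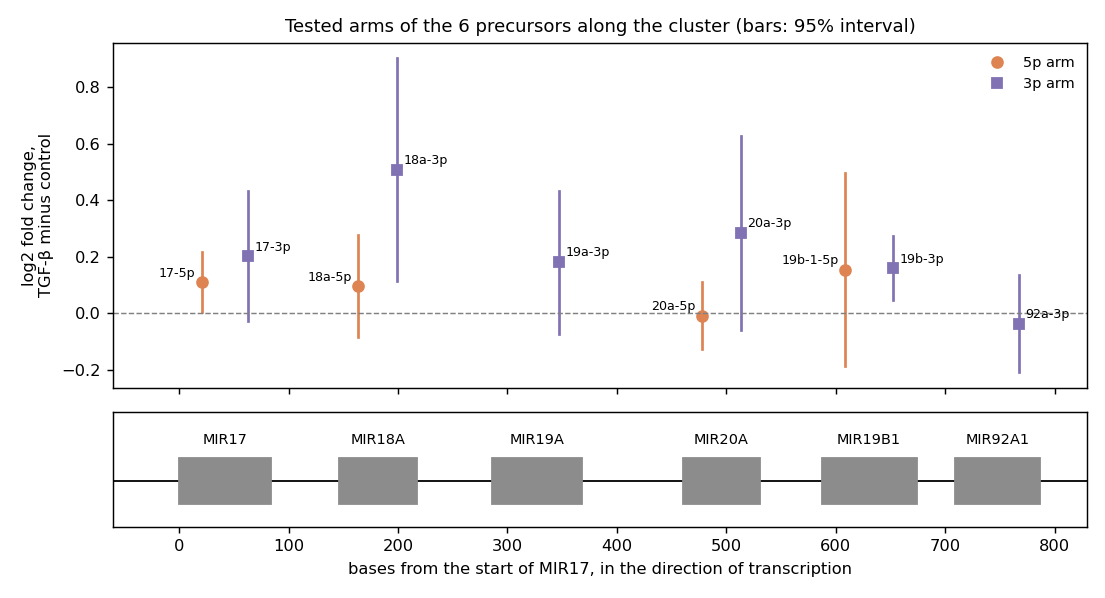
Upper panel, log2 fold change (TGF-β minus control) of the tested arms, with 95% intervals, drawn at each arm's distance in bases from the start of MIR17; lower panel, the 6 precursors. Values run from -0.04 for miR-92a-3p, the last guide of the transcript, to 0.51 for miR-18a-3p, and the intervals of neighbouring arms overlap.

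As a whole, 7 of the 9 tested members had a log2 difference above 0, beside 47.5% of all tested miRNAs, and all 9 with median scaling but 5 with the local background. The median of the members was 0.16, their range was -0.04 to 0.51, and the median of all tested miRNAs was -0.01, with quartiles at -0.15 and 0.16. Without control replicate 1 the median of the members was 0.086. By role, the 6 guides had a median of 0.10 and the 3 other tested members, all 3p arms, a median of 0.28. The median of these 3 arms was 0.13 without control replicate 1, 0.17 without background subtraction and -0.07 with the local background, where that of the guides was 0.21. The median of the guides was 0.067 without TGF-β replicate 1 and 0.18 with median scaling. Over the 36 pairs of members the Pearson correlation across the 6 arrays had a median of 0.394 and ran from -0.859, for miR-19a-3p with miR-92a-3p, to 0.871, for miR-17-3p with miR-18a-5p, with 27 pairs above 0. These arrays share their treatment and normalisation, so the correlations are a description only.

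Each member was centred on its own mean over the 6 arrays and the 9 values were averaged, which gives a level of the cluster on each array. It was -0.18, -0.03 and -0.04 in control and 0.09, 0.10 and 0.06 in TGF-β cells, on the log2 scale. All TGF-β arrays were above all control arrays, the groups differed by 0.17, and control replicate 1 was the lowest. The guides alone differed by 0.08 and the other 3 arms by 0.33; without background subtraction these values were 0.08 and 0.16, and with the local background 0.13 and -0.05. The difference of the cluster level was 0.22 with median scaling and 0.18 with scaling to the 75th percentile, both with the groups apart. It was 0.19 without normalisation between arrays and 0.07 with the local background, both with the groups overlapping. From the table of processed intensities that the authors deposited it was 0.32, with TGF-β replicate 2 at 0.46 and the other 5 arrays at -0.36 to 0.034. In that table the median of all tested miRNAs was itself 0.11 higher in TGF-β cells, where TGF-β replicate 2 had the largest scale factor, 4.78 (the lowest was 3.37).

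**Figure D3:**
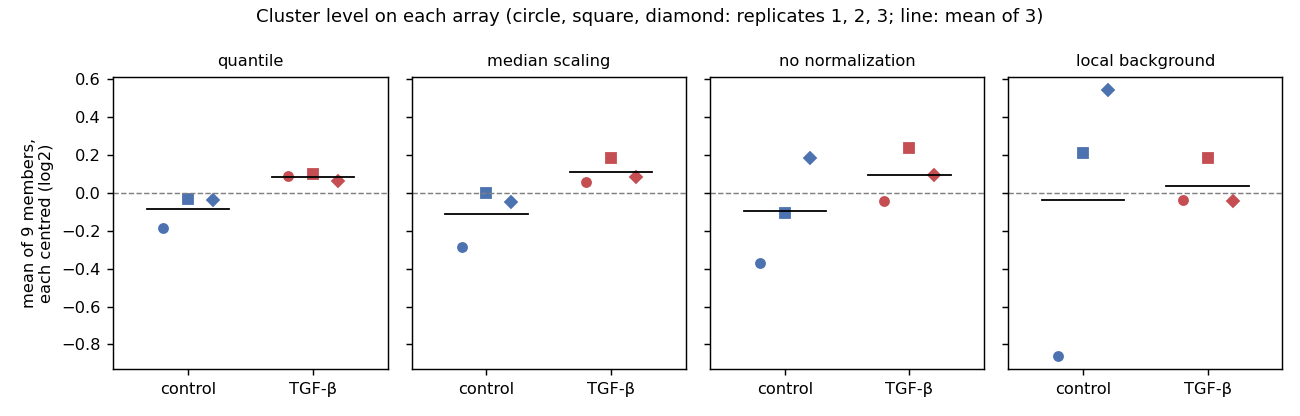
Mean of the 9 tested members, each centred on its own mean (log2), on each control and TGF-β array under 4 treatments of the signal, with symbols for replicates 1, 2 and 3 and a line at the mean of each group. The groups are apart with quantile normalisation and with median scaling, where they differ by 0.17 and 0.22, and overlap without normalisation and with the local background.

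Without any background subtracted, the median of the members was 0.13 and each of the 9 kept its direction. With the local background recorded around each spot, 5 of the 9 members had a log2 difference above 0, beside 44% of all tested miRNAs, and the median of the members was 0.01. The direction of 6 members turned, with values of -0.41 for miR-18a-5p, -0.33 for miR-19b-3p, -0.09 for miR-17-3p, -0.07 for miR-20a-3p, 0.61 for miR-20a-5p and 0.11 for miR-92a-3p. The cluster level of control replicate 1 was then -0.86 and that of control replicates 2 and 3 0.21 and 0.54, and the groups overlapped. On spots with a signal above 200 units the recorded local background was 0.434 to 0.995 of the signal (median per array), highest on control replicate 1, and arrays correlated at 0.639 to 0.971 in place of the 0.984 to 0.992 given above. With this background no miRNA passed an adjusted p of 0.05 in limma, 34 of 1457 (2.33%) had an unadjusted p under 0.05, and none of those was a member. Nor did the groups of any member stand apart, while every TGF-β array was above every control array for 3.92% of all miRNAs. The standard errors of the log2 differences were then 1.49 for miR-17-5p, 1.45 for miR-20a-5p and 1.52 for miR-19b-3p.

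**Figure D4:**
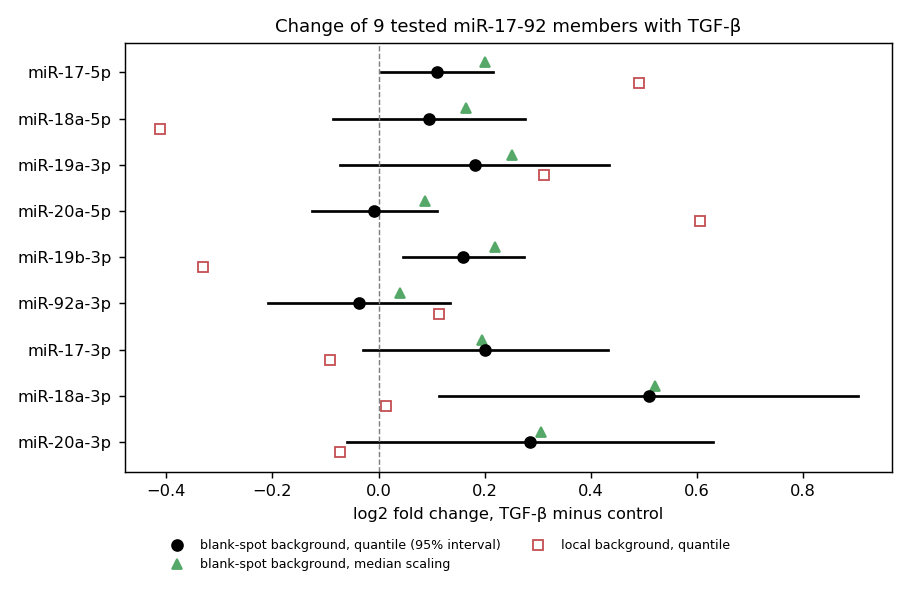
Log2 fold change (TGF-β minus control) of the 9 tested members with the blank-spot background and quantile normalisation (circles, with 95% intervals), with median scaling (triangles) and with the local background (open squares). Circles and triangles lie within 0.1 of each other, and 6 of the 9 squares lie on the other side of 0 from their circle.

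Paralog clusters and other miRNAs with the seeds of the members were set beside them. The X chromosome cluster made from MIR106A to MIR363 and the chromosome 7 cluster of MIR106B, MIR93 and MIR25 arose from the same ancestral locus, and the sequences shown are guides of these clusters together with miR-92b-3p, which lies in neither, again with the seed in capitals.
hsa-miR-106a-5p: aAAAGUGCuuacagugcagguag
hsa-miR-20b-5p: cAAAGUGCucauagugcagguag
hsa-miR-106b-5p: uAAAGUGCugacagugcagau
hsa-miR-93-5p: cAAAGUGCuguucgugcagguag
hsa-miR-18b-5p: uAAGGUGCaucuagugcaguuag
hsa-miR-92b-3p: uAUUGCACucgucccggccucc
hsa-miR-25-3p: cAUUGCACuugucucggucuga
miR-106a-5p differed from miR-17-5p by C1A alone and miR-18b-5p from miR-18a-5p by A20U alone, and whether their probes share signal with the members is not given in the files. miR-92b-3p differed from miR-92a-3p by U10C, G21C and U22C.

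Without miR-19b-3p and miR-92a-3p, which were kept with the members, the X chromosome cluster had 10 mature miRNAs on the array. Of these 8 were tested, 0 passed the adjusted p and 7 had a log2 difference above 0, with a median of 0.07 and a range of -0.03 to 0.36. Of the 6 of the chromosome 7 cluster all 6 were tested, 0 passed and 3 were above 0, with a median of 0.0086 and a range of -0.19 to 0.16. The smallest adjusted p-values in limma were 0.588 and 0.143. Of the 2588 miRNA names on the array 2281 had a RefSeq sequence, and among these 13 miRNAs outside the cluster share a seed with a member, and of the 9 tested none passed, 4 were above 0 and the median was -0.03.

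Among the relatives closest in sequence, the log2 difference was 0.03 for miR-106a-5p, 0.09 for miR-20b-5p, 0.05 for miR-18b-5p, -0.06 for miR-106b-5p, -0.07 for miR-92b-3p and -0.06 for miR-25-3p, with adjusted p-values in limma of 0.588 to 0.950. Of these, miR-25-3p turned to 0.047 with median scaling. miR-106b-5p and miR-92b-3p turned to 1.66 (SE 0.92) and 0.088 (SE 0.25) with the local background. The remaining directions were kept in both settings. miR-93-5p, singled out after its values were seen, was at 1127, 1128 and 1162 in control and 997, 948 and 1058 in TGF-β cells, so that every TGF-β array was below every control array. Its log2 difference was -0.19 (SE 0.059), with an unadjusted limma p of 0.00895 and an adjusted p of 0.143. With median scaling the difference of miR-93-5p was -0.04 and with the local background 0.32 (SE 0.92), and the groups overlapped in both settings. No test compared the members with their relatives.

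**Figure D5:**
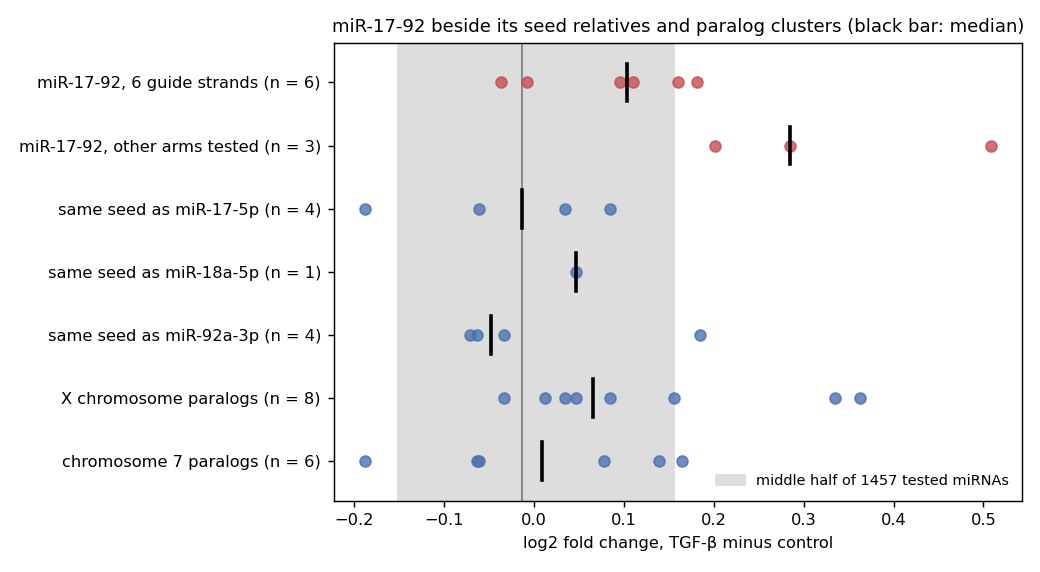
Log2 fold change (TGF-β minus control) of the 6 guides and 3 other arms of the cluster (red) and of miRNAs with the same seed or from the paralog clusters (blue), with black bars at medians; the grey band spans the quartiles of the 1457 tested miRNAs and the line is their median. The medians are 0.10 and 0.28 for the cluster's arms, 0.07 for the X chromosome cluster without miR-19b-3p and miR-92a-3p, and 0.0086 for the chromosome 7 cluster, and some miRNAs appear in a seed group and in a paralog cluster.

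The 5 non-member miRNAs whose pattern over the 6 arrays was most like the cluster level, among 1273 detected on all arrays, were miR-24-2-5p, miR-376b-5p, miR-495-3p, miR-4478 and miR-376c-3p, with Pearson correlations of 0.976, 0.971, 0.971, 0.969 and 0.967. Their log2 differences were 0.47, 0.43, 0.44, 0.30 and 0.29. Of these 5, 3 passed the adjusted p in limma, with miR-24-2-5p at 0.0189, miR-495-3p at 0.0105 and miR-376c-3p at 0.0224. The cluster level was lowest on control replicate 1 and higher on the TGF-β arrays, so a miRNA chosen for its likeness has the same order by the choice.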

How the data were processed

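RNA of 3 control and 3 TGF-β samples was labelled with Cy5 and hybridised to 3D-Gene miRNA arrays (Toray). The authors deposited scanner output per array, the median intensity and local background intensity of 3200 spots on a linear scale, not normalised, and a table of processed intensities. That table was rebuilt within 0.5 units (rounding): blank mean subtracted, each array's median detected miRNA set to 25. The paper's methods list group tests, a t-test among them, for all its experiments together. The normalisation of the arrays, and which of those tests was used on them, is not given in the sources used here.

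The analysis used R 4.3.3 with limma 3.58.1 and Python 3.11.15 with matplotlib 3.10.9. From each spot the mean of the 320 blank spots (5% trimmed at each end) was subtracted, a floor of 1 unit was set, log2 was taken, and miRNA probes were quantile normalised, with 3 flagged miRNA spots missing. limma's lmFit and eBayes with an intensity trend were run on 1457 probes, with Benjamini-Hochberg adjustment over all of them. The blank spots replaced the local background as the main setting because the recorded local background rises with the signal of its own spot. Exact permutation tests over arrays were 2-sided. Data of 3 against 3 arrays were simulated, in which 200 probes were given a log2 change of 1. Of those that passed the detection filter 75.1% were found (mean of 5 runs), and 5.97% of calls were false. Every simulated probe was given the spread of bright probes, besides the noise of the blank spots. The members' log2 differences were 0.51 or less, and changes of that size were not simulated.

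The members, lists and settings were chosen with earlier results of these data known. Named were all members, the remaining arms, up to 3 relatives per seed group closest in sequence, and the 5 miRNAs most like the cluster in pattern. Alternatives were other backgrounds, scalings, filters and tests, the deposited table, a replicate block and leaving out each array. The number of arrays limits the precision. The replicate number is also the array's position on its slide: same-numbered samples' deviations from the group means correlated at 0.13, 0.11 and -0.03, so they were not treated as pairs. With the local background the correlations were 0.30, 0.48 and 0.25, and that setting was also run with the block.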

Additional observations from a re-analysis of the deposited data

How the results depend on the processing

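Across 24 alternatives the count of members past the adjusted p, in limma or the t-test, stayed 0, with a replicate block too (on either background). The smallest adjusted p was 0.0818 (miR-17-5p, the methods' t-test, SE 0.0155). That SE includes the near-equal control values that quantile normalisation gave. Without normalisation between arrays the adjusted p of miR-17-5p was 0.991 in limma (SE 0.19). miR-17-5p, miR-18a-3p and miR-19a-3p kept a log2 difference above 0 in all 24 alternatives, but its size varied. It ran from 0.099 to 1.08 for miR-17-5p, 0.014 to 0.63 for miR-18a-3p and 0.065 to 0.62 for miR-19a-3p.

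The median of the members, 0.16, was 0.014 with the local background (offset 50), 0.043 with offset 0 and 0.30 with the deposited values, and 0.086 to 0.19 when 1 array was left out. The count of all miRNAs past the adjusted p, 58 (38 higher, 20 lower), was 0 with the local background at either offset. It was also 0 with the local background at offset 50 and the replicate block, where 40 miRNAs had an unadjusted p under 0.05 in limma. With the replicate block on the blank-spot background the count was 60 (39 higher, 21 lower). It was 31 with the deposited values (27 higher, 4 lower), 35 without normalisation (27 higher, 8 lower), 19 without a filter and 32 without the intensity trend. The methods' t-test gave 17, and leaving out 1 array gave 25 to 51. The cause was not tested.

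Directions turned as follows. With the local background at offset 50, with or without the replicate block (the former chosen after seeing the data), miR-17-3p was -0.092, miR-18a-5p -0.41, miR-20a-5p 0.61, miR-20a-3p -0.073, miR-19b-3p -0.33 and miR-92a-3p 0.11; at offset 0 they were -0.11, -0.59, 1.72, -0.13, -0.38 and 0.33. miR-20a-5p and miR-92a-3p were 0.19 and 0.14 with the deposited values, 0.088 and 0.041 with median scaling, 0.062 and 0.015 without normalisation, and 0.085 and 0.037 with the deposited values rescaled on miRNAs detected on all arrays, a setting chosen after seeing the data. miR-20a-5p was 0.044 with 75th percentile scaling. With 1 array left out, miR-20a-5p ran from -0.037 to 0.019 and miR-92a-3p from -0.094 to 0.00016.

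Slide and treatment cannot be told apart, how far probes separate near-identical miRNAs is not given in the files, and miR-18a-3p and miR-92a-1-5p lay close to the blank spots.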
